A study of Mus musculus with 7 samples.

Results

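The mitochondrial ribosomal proteins were followed as the 78 genes whose symbol is Mrpl or Mrps followed by a number, with or without a final letter from a to d, among 49585 genes in the deposited tables. Of these, 49 carry the large subunit name (Mrpl) and 29 the small subunit name (Mrps). They were measured in MS-1, a mouse endothelial cell line that was grown in DMEM. The study holds 3 libraries of wild type MS-1 cells, called control, and 4 libraries of MS-1 cells with genotype LPL overexpression, in which lipoprotein lipase, the enzyme that hydrolyses triglyceride in circulating lipoproteins, was raised. How the LPL sequence was introduced, whether the cells were a clone or a pool, and whether the libraries came from separate cultures is not stated in the labels, and no vector-only library is among those analysed. The p-values therefore measure the spread between these libraries, which may be technical.

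The mitochondrial ribosome translates the small set of messenger RNAs encoded by the mitochondrial genome, all of which specify subunits of the respiratory chain and ATP synthase. Its ribosomal RNAs, mt-Rnr1 in the small subunit and mt-Rnr2 in the large, are transcribed inside the organelle, whereas its proteins are encoded in the nucleus, made in the cytosol and imported. Some of these proteins have a bacterial homologue and others are found only in mitochondria, and both kinds are part of the housekeeping programme of most cells, endothelial cells included.

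Total RNA was sequenced with a stranded kit, and sense counts summed to between 24328418 and 29210847 per library, of which the 78 genes took between 0.345% and 0.370%. Lpl, the overexpressed gene, had 1, 1 and 6 counts in the control libraries and 10867, 12691, 10901 and 12753 in the LPL overexpression libraries. The endothelial markers Pecam1, Cdh5, Kdr, Tek, Erg and Plvap were expressed in both groups, and the sum of 14 endothelial markers was 5185 to 5208 TPM (a level per length that sums to the same total in each library) in controls and 4559 to 4684 TPM with LPL overexpression. Of those 14, Cldn5 and Vwf were at or near 0. Of 13 tested, 8 passed as lower and 2 as higher, beside 21.3% and 21.9% of all genes tested. The groups also differed in pigment cell genes: all 15 of 15 listed markers passed as higher with LPL overexpression, and their sum was 10.4 to 10.6 TPM in controls and 2353 to 2489 TPM in the 4 LPL overexpression libraries. Among them Tyrp1, Dct, Tyr, Mlana, Oca2, Sox10 and Mlph were at 0 in every control library. All 4 LPL overexpression libraries carried this difference, so no result below could be given without it, and its part in the results was not tested. In bulk RNA, a different number of cells of a type and a different amount of RNA per cell cannot be told apart. Markers of mural cells, fibroblasts and adipocytes were low. The 12 mural cell and fibroblast markers summed to 2.49 to 2.58 TPM in controls and 3.94 to 4.54 TPM with LPL overexpression, with Dcn and Lum at 0 in all libraries. Of 5 tested, 3 passed as higher and 0 as lower, and the largest log2 fold change was 5.53. The 5 adipocyte markers summed to 0.950 to 1.27 and 1.15 to 1.32 TPM, with Lep at 0. The 12 pancreatic markers summed to 26.1 to 28.4 and 24.7 to 28.0 TPM with Ins1, Ins2, Sst and Epcam at 0. Of 3 tested, 1 passed as higher and 1 as lower, and the largest log2 fold change was 4.46. The 9 leukocyte markers summed to 186 to 202 and 251 to 275 TPM, nearly all of it Cd68, with Cd3e and Adgre1 at 0. Of 2 tested, 1 passed as higher and 1 as lower.

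All members but Mrpl53 had at least 48 counts in each library, and most levels lay in a narrow band. Of the 78 genes, 65 had a mean between 20 and 200 TPM in the control libraries. The median level was 69.7 TPM for the large subunit and 55.5 TPM for the small subunit in controls, and 75.4 and 55.8 TPM with LPL overexpression. On this per-length scale Mrpl42, a mitochondria-specific protein of the large subunit, was the highest, at 307, 304 and 296 TPM in the controls and 317, 332, 313 and 306 TPM with LPL overexpression, and the groups overlapped. It was followed by Mrpl12 at 235 ± 12.8 TPM (SD, n = 3) in controls and 265 ± 4.62 TPM (SD, n = 4) with LPL overexpression. Mrps16, the highest of the small subunit and a homologue of a bacterial small subunit protein, had 234 ± 9.07 and 254 ± 4.95 TPM. Mrpl18, whose bacterial counterpart carries the ribosome's smallest RNA, had 199 ± 5.79 and 228 ± 6.05 TPM. In the controls Mrpl12 and Mrps16 did not differ beyond their SD, whereas Mrpl42 stood above both by more than the SD of either.

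The lowest members were Mrpl53, Mrpl23, Mrps36 and Mrps35. Mrps35, a mitochondria-specific small subunit protein, had 11.9 ± 0.356 TPM in controls and 12 ± 0.251 TPM with LPL overexpression. Mrps36, which is also known as a component of the mitochondrial 2-oxoglutarate dehydrogenase complex and which the solved mammalian ribosome does not contain, had 4.87, 5.0 and 5.38 TPM in controls and 5.09, 6.42, 5.08 and 4.89 TPM with LPL overexpression, from 48 to 73 counts a library. Mrpl23, a homologue of a bacterial protein at the exit of the peptide tunnel, had 3.90 ± 0.681 and 3.99 ± 0.198 TPM. Processed pseudogenes of Mrpl23, Mrpl48 and Mrps36 are listed in the tables, so that reads of these genes could be split between copies. Mrpl53 (chr6:83109040-83109939, plus strand, mm10) had 0 to 2 counts a library and was not tested. In the GENCODE vM21 annotation of this build, 88.0% of its exon bases are shared with Gm42688 on the same strand, so its level cannot be read from these counts.

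**Figure D1:**
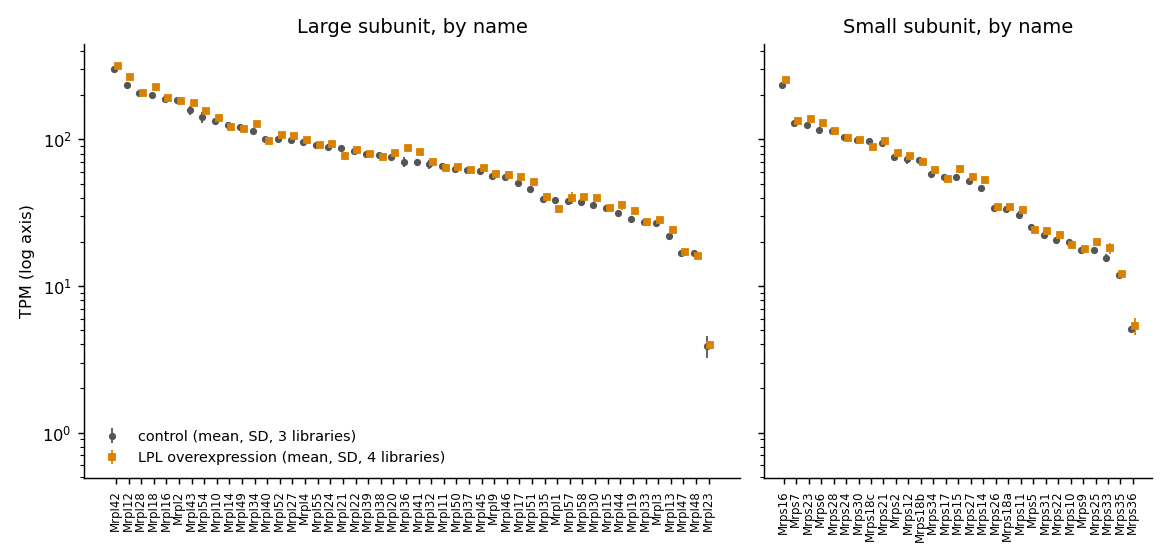
Level of each mitochondrial ribosomal protein gene in TPM (log axis, mean and SD), large subunit on the left and small subunit on the right, ordered by the control mean. Circles are the 3 control libraries and squares the 4 LPL overexpression libraries. Mrpl53, below 1 TPM, is left out. The order from Mrpl42 down to Mrpl23 and from Mrps16 down to Mrps36 was nearly the same in both groups.

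The order of the genes was nearly the same in both groups, with a Pearson r of 0.997 between group means of log2 TPM across 77 genes, which share libraries and are not independent replicates. Part of the order followed length. Across the same genes, the rank correlation with exonic length was -0.75 for the mean TPM of all 7 libraries. It was 0.31 for the mean CPM of the 3 control libraries, counts scaled to library size and not divided by length. The exonic length in the deposited tables equalled the union of vM21 exons for 64 of 78 members. Libraries of 1 group were close, with a median coefficient of variation of 3.17% in controls and 3.20% with LPL overexpression.

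Whether LPL overexpression changed these genes was read from a count model fitted to all 13639 genes with enough reads (edgeR's quasi-likelihood test with Benjamini-Hochberg adjustment, threshold 0.05). Of all genes tested 43.2% passed, 21.9% as higher and 21.3% as lower. Of the 77 members tested, 22 passed (28.6%), 17 as higher (22.1%) and 5 as lower (6.49%). In this fit the share of members that rose was thus close to that of all genes, and the share that fell was lower. Under the alternative settings given below, the rises numbered 8 to 17 in the large subunit and 4 to 9 in the small. Over all genes tested they numbered 2481 to 3513, beside 2989 in this fit. On data simulated from these libraries, with 50 genes changed at each fold, the same fit made 19 false calls, more than its threshold allows. It recovered 17 of 50 changes of 1.1-fold, the smallest simulated and of a size seen among the members. Far fewer genes were changed there than the 43.2% that passed here, so neither rate carries over to the fit reported. Without adjustment, 29 members had a p under 0.05. The changes were small in both directions, from -0.23 to 0.30 in log2 fold change, and 78.9% of all genes tested had a change no larger than the largest of a member. The median size of the log2 fold change was 0.07 for members and 0.12 for all genes tested, with median standard errors of 0.04 and 0.05. The precision came from 48 to 3806 counts a library for the members tested.

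**Figure D2:**
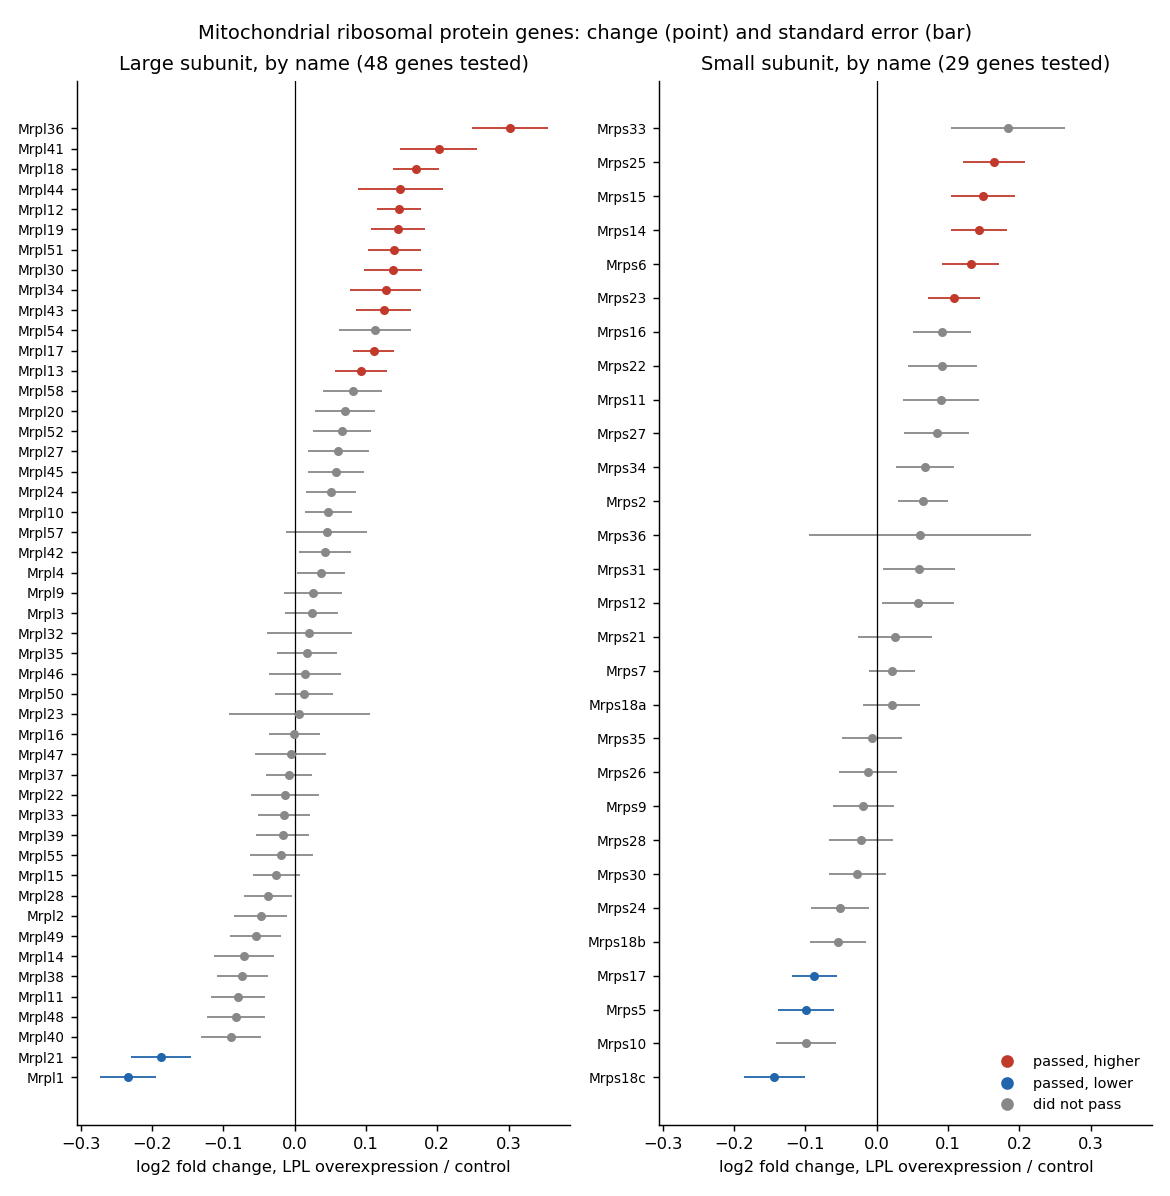
Log2 fold change of LPL overexpression over control (horizontal axis, point) with its standard error (bar) for the 48 large subunit and 29 small subunit genes tested. Red and blue points passed the test as higher or lower, and grey points did not pass. The values run from -0.23 at Mrpl1 to 0.30 at Mrpl36.

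Large subunit. Of 48 genes tested, 12 rose (25.0%), 2 fell (4.17%) and 34 did not pass. The median log2 fold change was 0.02, beside 0.00 over all genes tested. Over the alternative settings the number that rose was 8 to 17. Without LPL overexpression library 2 the number that fell was 4. By the solved mammalian structure, in which Mrps30 and Mrps18a belong to the large subunit, the counts were the same 12 and 2 among 50 genes. Among the 30 genes tested with a bacterial homologue 8 rose and 2 fell, and among the 20 mitochondria-specific ones 4 rose and none fell (Mrpl40, the lowest of the 20, had a log2 fold change of -0.09). No test of a difference between these classes was made.

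Mrpl36 (chr13:73331009-73332175, plus strand, mm10), a short homologue of a bacterial large subunit protein, rose the most. Its level was 75.9, 65.4 and 68.6 TPM in the 3 controls and 84.8, 89.1, 85.1 and 91.8 TPM in the 4 LPL overexpression libraries. All LPL overexpression libraries lay above all controls, a pattern that 22.8% of all genes tested showed on the CPM scale. The log2 fold change was 0.30 ± 0.05 (SE; adjusted p = 4.65e-06, edgeR). Mrpl1 (chr5:96209493-96266727, plus strand, mm10), the protein of the mobile stalk beside the exit site for transfer RNA, fell the most of all members. It had 38.3, 39.4 and 37.7 TPM in the controls and 33.0, 34.0, 34.2 and 32.2 TPM with LPL overexpression. Here all LPL overexpression libraries lay below all controls, as did those of 21.8% of all genes tested, and the log2 fold change was -0.23 ± 0.04 (SE; adjusted p = 2.29e-06, edgeR). The promoters of both are shown because they belong to the members with the largest changes in each direction. They are the 150 bases before the RefSeq start on the gene's strand (GRCm38.p6), at chr13:73330859-73331008 (plus strand) for Mrpl36 and chr5:96209965-96210114 (plus strand) for Mrpl1, and capitals mark the motifs described further on.
Mrpl36: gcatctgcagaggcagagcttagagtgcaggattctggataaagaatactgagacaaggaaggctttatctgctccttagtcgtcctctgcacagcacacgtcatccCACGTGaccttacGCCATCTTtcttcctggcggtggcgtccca
Mrpl1: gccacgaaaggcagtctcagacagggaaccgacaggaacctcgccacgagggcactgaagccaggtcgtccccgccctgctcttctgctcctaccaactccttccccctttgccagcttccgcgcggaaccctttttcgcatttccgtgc
In the Mrpl36 window the capitals are a CACGTG and, on the opposite strand, an AAGATGGC, and the Mrpl1 window has no match to any of the motifs searched. The Mrpl1 window lies inside the bounds of the gene as counted, which start upstream of it at 96209493. The bases before that other start are not shown.

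Mrpl41 (chr2:24974117-24975098, minus strand), a mitochondria-specific protein that has also been reported to bind the survival factor BCL2, had 74.1, 68.5 and 66.5 TPM in controls and 83.8, 86.1, 78.9 and 77.7 TPM with LPL overexpression. Its groups did not overlap, and its log2 fold change was 0.20 ± 0.05 (SE; adjusted p = 0.00172, edgeR). Mrpl18 had 203, 193 and 202 TPM in controls and 233, 232, 229 and 220 TPM with LPL overexpression, without overlap (log2 fold change 0.17 ± 0.03, SE; adjusted p = 1.37e-05, edgeR). Mrpl12, a protein of the stalk that recruits translation factors and one that has been reported to bind the mitochondrial RNA polymerase, had 228, 227 and 249 TPM in controls and 268, 260, 262 and 269 TPM with LPL overexpression. Every LPL overexpression library of Mrpl12 exceeded the highest control (log2 fold change 0.15 ± 0.03, SE; adjusted p = 8.63e-05, edgeR).

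Mrpl19, a homologue of a bacterial protein at the interface with the small subunit, had 28.3, 28.8 and 29 TPM in controls and 32.2, 32.3, 32.2 and 32.6 TPM with LPL overexpression (log2 fold change 0.14 ± 0.04, SE). The mitochondria-specific Mrpl51 had 46.8, 44.8 and 44.9 TPM and then 52.6, 52.0, 49.4 and 50.4 TPM (log2 fold change 0.14 ± 0.04, SE). Mrpl30, a bacterial homologue, had 34.5, 35.7 and 36.6 TPM and then 39.7, 38.7, 40.1 and 41.2 TPM (log2 fold change 0.14 ± 0.04, SE). None of these 3 genes had overlapping groups, although Mrpl30 missed the threshold without control library 1 (adjusted p = 0.0513, edgeR). Mrpl44, which has the fold of a double-stranded RNA nuclease, had 31.0, 32.3 and 31.0 TPM in controls and 32.0, 35.0, 36.7 and 38.0 TPM with LPL overexpression. Its groups overlapped and its log2 fold change was 0.15 ± 0.06 (SE; adjusted p = 0.039, edgeR), but it missed the threshold under 6 of 14 alternative settings. These were DESeq2 (adjusted p = 0.119), the replicate block (0.146) and the fits without control library 1 (0.125), control library 3 (0.0844), LPL overexpression library 3 (0.0921) or LPL overexpression library 4 (0.121).

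The other 4 genes that rose were Mrpl34, Mrpl43, Mrpl17 and Mrpl13, with log2 fold changes from 0.09 to 0.13 and no overlap between the groups. Mrpl17, whose bacterial homologue lies near the exit of the peptide tunnel, had 50.5, 48.7 and 52.1 TPM in controls and 54.1, 56.1, 55.2 and 56.4 TPM with LPL overexpression, and it passed under all 14 alternatives. Mrpl43, a mitochondria-specific protein, had 168, 160 and 147 TPM and then 171, 182, 173 and 177 TPM, and missed the threshold without control library 3 (adjusted p = 0.118, edgeR). Mrpl34 missed it under 8 of the 14 alternatives, among them DESeq2 (adjusted p = 0.106), and without control library 1 (0.101), 2 (0.0583) or 3 (0.0667) or LPL overexpression library 1 (0.0753) or 4 (0.0885). Mrpl13 missed it under 6, among them DESeq2 (0.0686), and without control library 1 (0.117) or 2 (0.098) or LPL overexpression library 1 (0.0515) or 2 (0.0604). Besides Mrpl1, the gene that fell was Mrpl21 (chr19:3282901-3292837, plus strand), a homologue of a bacterial protein that binds ribosomal RNA. It had 85.6, 85.0 and 89.6 TPM in controls and 73.0, 84.0, 75.5 and 77.3 TPM with LPL overexpression. The second LPL overexpression library came close to the controls but remained below them, and the log2 fold change was -0.19 ± 0.04 (SE; adjusted p = 0.000222, edgeR).

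Small subunit. Of 29 genes tested, 5 rose (17.2%), 3 fell (10.3%) and 21 did not pass. The median log2 fold change was 0.06. The number that fell was 1 with upper-quartile scaling, with DESeq2 and with limma on log2(TPM + 0.5), and the number that rose was 9 with upper-quartile scaling and with limma. By the solved structure the counts were the same 5 and 3 among 26 genes. Among the 16 with a bacterial homologue 3 rose and 3 fell, and among the 10 mitochondria-specific ones 2 rose and none fell (Mrps18b, the lowest of the 10, had a log2 fold change of -0.05).

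Mrps25 (chr6:92169525-92184033, minus strand), a mitochondria-specific protein, had 17.7, 18.2 and 16.6 TPM in controls and 19.1, 21, 20.4 and 19.4 TPM with LPL overexpression. The groups did not overlap and the log2 fold change was 0.16 ± 0.04 (SE; adjusted p = 0.00135, edgeR). Mrps15, a bacterial homologue that binds ribosomal RNA early in assembly, had 56.6, 54.4 and 55.4 TPM and then 64.3, 65.8, 58.3 and 61.9 TPM (log2 fold change 0.15 ± 0.04, SE). Mrps14 had 47.8, 46.5 and 46.0 TPM and then 50.7, 53.1, 55.7 and 51.2 TPM (log2 fold change 0.14 ± 0.04, SE). Mrps6, a bacterial homologue, had 116, 112 and 120 TPM and then 128, 128, 132 and 129 TPM, and the mitochondria-specific Mrps23 had 126, 128 and 121 TPM and then 141, 142, 134 and 132 TPM. They rose by 0.13 ± 0.04 and 0.11 ± 0.04 (log2 fold change, SE). In none of these 5 genes did the groups overlap, while Mrps6 missed the threshold without control library 2 (adjusted p = 0.0573, edgeR) and Mrps23 without control library 3 (adjusted p = 0.0739, edgeR). Mrps33 had the largest change of the subunit, 0.18 ± 0.08, but did not pass (adjusted p = 0.0588, edgeR), and it is named here because of that value.

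Mrps18 exists as 3 related genes, of which Mrps18b and Mrps18c take places in the small subunit and Mrps18a in the large. Mrps18c (chr5:100798627-100804471, plus strand) had 97.3, 98.7 and 94.1 TPM in controls and 87.0, 92.0, 91.1 and 86.5 TPM with LPL overexpression. All its LPL overexpression libraries were below all controls and its log2 fold change was -0.14 ± 0.04 (SE; adjusted p = 0.00481, edgeR). Mrps18b had 71.9 ± 2.08 TPM (SD, n = 3) in controls and 70.6 ± 1.65 TPM (SD, n = 4) with LPL overexpression, a log2 change of -0.05 ± 0.04 (SE; adjusted p = 0.279, edgeR). Mrps18a had 33.3 ± 0.973 and 34.4 ± 0.632 TPM and a log2 change of 0.02 ± 0.04 (SE; adjusted p = 0.713, edgeR). Whether the 3 genes differed in their response was not tested.

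Mrps5, whose bacterial homologue lies where messenger RNA enters the ribosome, had 26.2, 24.9 and 24.6 TPM in controls and 25.0, 23.8, 24.2 and 23.0 TPM with LPL overexpression. These TPM values overlapped, although the TMM-scaled CPM values did not, and the log2 fold change was -0.10 ± 0.04 (SE; adjusted p = 0.0368, edgeR). Mrps5 missed the threshold under 11 of the 14 alternatives, among them DESeq2 (adjusted p = 0.0929) and the counts of both read orientations (0.0501), and without control library 1 (0.168) or 2 (0.0561) or LPL overexpression library 2 (0.0561) or 4 (0.139). Mrps17, a bacterial homologue that binds ribosomal RNA, had 55.0, 54.9 and 57.5 TPM and then 50.3, 55.8, 53.6 and 54.1 TPM. Its groups overlapped on both scales, and its log2 fold change of -0.09 ± 0.03 (SE; adjusted p = 0.0215, edgeR) missed the threshold under 6 alternatives, among them DESeq2 (0.0681), and without control library 3 (0.216) or LPL overexpression library 1 (0.148). Mrps30, which despite its name sits in the large subunit, had 99.6 ± 4.99 TPM in controls and 99.6 ± 1.66 TPM with LPL overexpression. For Mrps36 the log2 fold change was 0.06 ± 0.16 (SE; adjusted p = 0.788, edgeR), the widest error of any member tested.

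**Figure D3:**
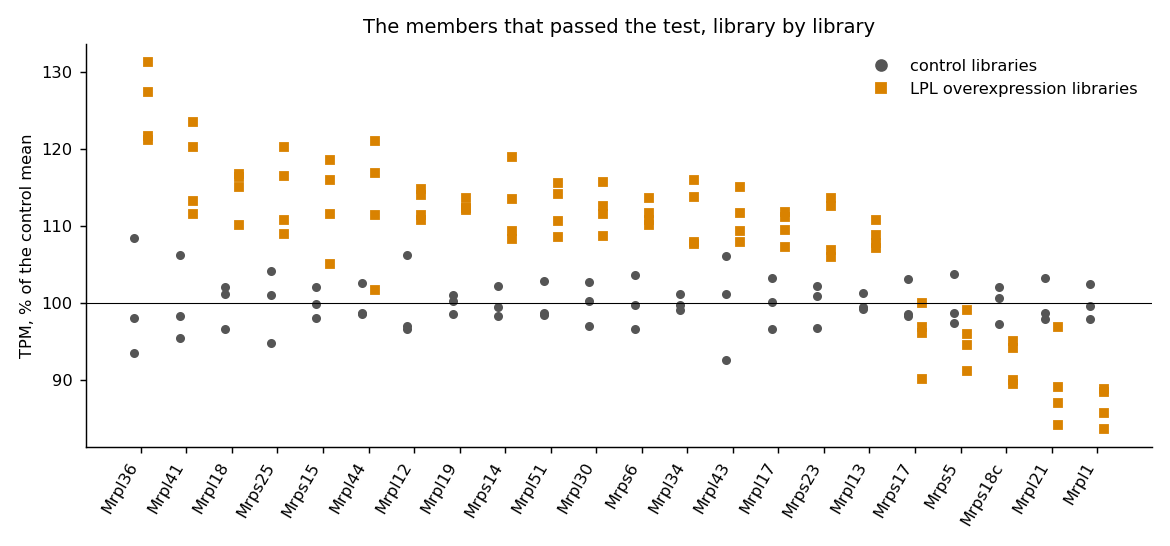
Level of the 22 members that passed the test, each library as a percent of that gene's control mean in TPM (vertical axis), ordered by log2 fold change. Circles are control and squares LPL overexpression libraries. The squares lie above the circles for 16 of the 17 genes that rose, Mrpl44 being the exception, and the smallest falls, at Mrps17 and Mrps5, overlap the controls in TPM. The genes shown were picked by the test, so the separation is no separate support.

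In the TMM-scaled CPM values used by the test, 20 of the 22 members that passed had groups without overlap, and the exceptions were Mrpl44 and Mrps17. These members were picked by a test on the same values, so the count is no separate support for their calls. The share among all genes that passed is not given here. Of the 22 calls, 13 held under all 14 alternatives: 10 rises (Mrpl36, Mrpl41, Mrpl18, Mrpl12, Mrpl19, Mrpl51, Mrpl17, Mrps25, Mrps15 and Mrps14) and 3 falls (Mrpl1, Mrpl21 and Mrps18c). Reads of overlapping genes bear on some of them. In vM21, 8 of the 78 members share exon bases with another gene on the same strand, among them Mrps6 (10.4% of its exon bases, with Slc5a3), Mrps18c (23.2%, with Gm43511) and Mrpl51 (2.15%, with Mir3098). A further overlap on the opposite strand was found for 26 members. At Mrps25, which overlaps Nr2c2, forward reads made up 46.1% of oriented reads, and at Mrpl19, which overlaps Gcfc2, 11.4%, and these were left out by counting the sense orientation only.

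The summed level of each subunit was higher with LPL overexpression in TPM, and less so after TMM scaling. The 49 large subunit genes summed to 4168, 4114 and 4169 TPM in the controls and 4342, 4411, 4344 and 4297 TPM with LPL overexpression, a ratio of means of 1.05. The 29 small subunit genes summed to 1846, 1837 and 1876 TPM and then 1944, 1949, 1923 and 1924 TPM, a ratio of 1.04. Neither sum overlapped between the groups on this scale. In TMM-scaled CPM the large subunit summed to 2371 to 2407 in controls and 2408 to 2481 with LPL overexpression, a ratio of 1.02, and the small subunit to 1134 to 1156 and 1147 to 1181, a ratio of 1.01, with overlap. The TMM factors were 0.983 to 0.987 in controls and 1.01 in each LPL overexpression library. By gene, every LPL overexpression library exceeded every control for 22 members in TPM and 17 in TMM-scaled CPM, and lay below every control for 3 and 6. In TMM-scaled CPM these were 21.8% and 7.69% of the members, beside 22.8% and 21.8% of all genes tested. The shares of all genes in TPM are not given here, so the 22 and 3 are not read as particular to the members. With limma on log2(TPM + 0.5), 61.3% of the calls over all genes were higher, beside 50.8% in the fit reported. The ratio of the large to the small subunit sum in TPM was 2.22 to 2.26 in controls and 2.23 to 2.26 with LPL overexpression.

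**Figure D4:**
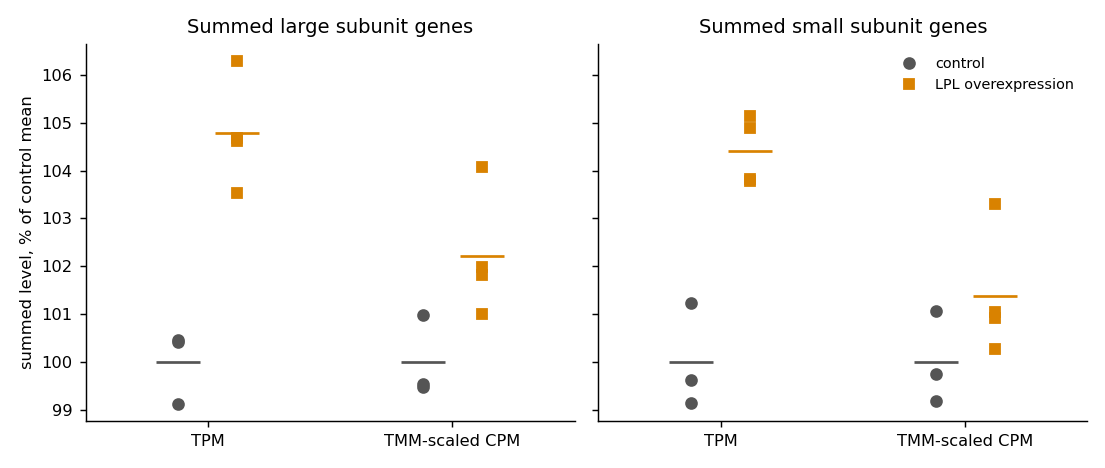
Summed level of the large subunit genes (left) and small subunit genes (right) in each library as a percent of the control mean, in TPM and in TMM-scaled CPM. Points are libraries and short lines group means. The LPL overexpression mean is 1.05 and 1.04 times the control mean in TPM and 1.02 and 1.01 times in TMM-scaled CPM, where the small subunit sums overlap.

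Many members share a start region with another gene. A protein-coding neighbour on the opposite strand that starts within 1000 bases, or overlaps by up to 500 bases, was found for 24 of 78 members (30.8%), beside 14.8% of 11967 protein-coding genes tested. Of the 24 partners 9 passed, 4 as higher and 5 as lower, beside 21.9% and 21.3% of all genes tested. In 5 pairs both genes passed, and the share of such pairs over all genes is not given here. Mrps11 and Mrpl46 are each the partner of the other, so that pair is counted from both sides. Whether the genes of a pair changed together more often than other genes was not tested. Mrpl30 and Mitd1, a gene of cytokinesis, start 66 bases apart, and Mitd1 had 14.7, 16.0 and 15.1 TPM in controls and 16.9, 18.2, 19.3 and 17.0 TPM with LPL overexpression (log2 fold change 0.20 ± 0.06, SE). Both genes of that pair rose. Wdfy1, the partner of Mrpl44, went from 4.02, 3.87 and 3.55 TPM to 6.35, 6.99, 7.56 and 7.04 TPM, a log2 change of 0.85 ± 0.07 (SE; adjusted p = 3.67e-14, edgeR) beside 0.15 at Mrpl44. The pairs Mrpl41 and Pnpla7 (0.24 at Pnpla7) and Mrpl13 and Mtbp (0.11 at Mtbp) also rose in both genes, and in Mrps5 and Zfp661 both fell (-0.27 at Zfp661). Mrpl41 and Pnpla7 start 935 bases apart, and Zfp661 passed narrowly (adjusted p = 0.0492, edgeR). Of the members in these pairs, Mrpl44 and Mrpl13 each missed the threshold under 6 of 14 alternatives, Mrps5 under 11, Mrpl30 under 1 and Mrpl41 under none.

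In some other pairs only the member or only the partner passed, and a difference between them was not tested. Eme2, which starts 29 bases from Mrps34, fell by 0.34 on the log2 scale (adjusted p = 7.2e-06, edgeR), while Mrps34 had a log2 fold change of 0.07 (adjusted p = 0.181, edgeR). Of the exon bases of Mrps34, 37.0% are shared with Nme3 on the same strand. Sars2, the mitochondrial seryl-tRNA synthetase, starts 172 bases from Mrps12 and fell by 0.16, while Mrps12 was at 0.06 and did not pass. Twnk, the helicase of the mitochondrial genome, starts 116 bases from Mrpl43 and had a log2 fold change of -0.07 that did not pass, while Mrpl43 rose. Ighmbp2 at Mrpl21 and Helq at Mrps18c did not pass either, with 0.03 and 0.08, while their partners fell. Ncapd2 at Mrpl51 was at 0.04 and did not pass, while Mrpl51 rose. Fau at Mrpl49 (-0.07) and Zfp189 at Mrpl50 (-0.29) passed as lower, while Mrpl49 (-0.05) and Mrpl50 (0.01) did not pass. Mrps11 and Mrpl46 are a pair within the family, whose gene bounds overlap by 412 bases at their starts. Neither passed (log2 fold changes 0.09 ± 0.05 and 0.01 ± 0.05, SE). Shown here are the start region of Mrpl43, which holds repeated ETS letters, and that of Mrps11, which lies within the bounds of Mrpl46. They are at chr19:45006443-45006592 (minus strand) for Mrpl43 and chr7:78782981-78783130 (plus strand) for Mrps11. Both are the 150 bases before the RefSeq start on the gene's strand (GRCm38.p6).
Mrpl43: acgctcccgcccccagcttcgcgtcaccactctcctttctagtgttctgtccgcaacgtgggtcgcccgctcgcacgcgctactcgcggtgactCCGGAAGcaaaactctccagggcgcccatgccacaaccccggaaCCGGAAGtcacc
Mrps11: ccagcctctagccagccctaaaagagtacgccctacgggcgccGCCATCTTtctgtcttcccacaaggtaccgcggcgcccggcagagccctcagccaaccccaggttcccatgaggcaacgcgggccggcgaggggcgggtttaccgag
In Mrpl43 the capitals are the 2 matches to CCGGAAG, and in Mrps11 they are AAGATGGC on the opposite strand.

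A RefSeq promoter of 300 bases, from 250 before to 50 after the start, was matched to 69 of the 78 members. Letters bound by factors known to act on nuclear genes for mitochondria were searched on both strands: GCATGCGC for NRF1, CCGGAAG for the ETS factors that include Gabpa, AAGATGGC for Yy1, and CACGTG, the E-box of Myc and its relatives. None of these motifs contains another. The ETS letters occurred in 26 members (37.7%), beside 20.4% of 9751 tested genes with a promoter and 9.93% of 27025 genes in all. The Yy1 letters occurred in 12 members (17.4%), beside 5.32% and 3.19%, and the NRF1 letters in 8 (11.6%), beside 6.13% and 3.05%. The E-box occurred in 5 (7.25%), beside 11.9% and 8.09%. By response, the ETS letters were in 6 of 15 members that rose, 2 of 5 that fell and 17 of 48 that did not pass, and the Yy1 letters in 1 of 15, 0 of 5 and 11 of 48. Such matches are descriptions of the letters and not of binding.

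The other genes of mitochondrial translation were read from the same fit, from 7 lists. Of 108 tested, 26 rose (24.1%) and 10 fell (9.26%), beside 21.9% and 21.3% of all genes tested. Chchd1, Aurkaip1 and Gadd45gip1, subunits of the ribosome that do not carry its name, rose, and Dap3 and Ptcd3 did not pass, so 3 of 5 rose and none fell (Dap3, the lowest, had a log2 fold change of -0.04). Aurkaip1 had 92.7, 95 and 97.3 TPM in controls and 105, 111, 114 and 106 TPM with LPL overexpression (log2 fold change 0.17 ± 0.04, SE). Chchd1 rose by 0.13 ± 0.04 (log2 fold change, SE) and missed the threshold without control library 1 (adjusted p = 0.0574, edgeR) or 2 (0.092). Of 30 assembly factors and ribosomal RNA modifiers 5 rose and 3 fell. Trub2, a pseudouridine synthase of mitochondrial RNA, had 21.1, 20.2 and 22.3 TPM in controls and 27.1, 27.1, 25.8 and 26.2 TPM with LPL overexpression (log2 fold change 0.30 ± 0.04, SE), and Mpv17l2, an assembly factor of the inner membrane, rose by 0.18. Noa1, a GTPase of small subunit assembly, fell by 0.18. Nsun4, which methylates mt-Rnr1 and helps join the subunits, fell by 0.16 but missed the threshold under DESeq2 (adjusted p = 0.0651), limma (0.0827) and without control library 1 (0.0796), control library 2 (0.0687) or LPL overexpression library 3 (0.0549).

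Of 20 translation factors 8 rose and 1 fell. Gfm2, the factor that splits the ribosome after termination, had 5.95, 5.95 and 5.25 TPM in controls and 7.06, 6.92, 6.64 and 6.83 TPM with LPL overexpression (log2 fold change 0.24 ± 0.05, SE), and Metap1d, which removes the first methionine, rose by 0.21. Lrpprc, which stabilises mitochondrial messenger RNA, fell by 0.10, a call that limma on log2(TPM + 0.5) did not make (adjusted p = 0.0709). Of 17 mitochondrial aminoacyl-tRNA synthetases 4 rose, among them Iars2 at 0.10 ± 0.03 (log2 fold change, SE), and Sars2 alone fell, with 14.2, 14.3 and 14.3 TPM in controls and 13.2, 12.6, 13.3 and 13.1 TPM with LPL overexpression. Sars2 missed the threshold under DESeq2 (adjusted p = 0.11) and without control library 2 (0.0759) or 3 (0.0769) or LPL overexpression library 2 (0.0727).

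Of 16 genes of mitochondrial transcription and RNA processing 2 rose and 2 fell. Tfam, which packages and transcribes the mitochondrial genome, had 36.7, 38.9 and 37.1 TPM in controls and 43.3, 42.8, 43.4 and 43.2 TPM with LPL overexpression (log2 fold change 0.17 ± 0.04, SE). Hsd17b10, a subunit of the mitochondrial RNase P, fell by 0.15. Supv3l1, a helicase of RNA decay, rose by 0.14 and missed the threshold without control library 2 (adjusted p = 0.0809, edgeR) or 3 (0.0716) or LPL overexpression library 1 (0.0555) and under DESeq2 (0.059). Trmt10c, another subunit of RNase P, fell by 0.10 with an adjusted p of 0.0429 (edgeR) and missed the threshold under 12 of 14 alternatives. Its adjusted p was 0.258 without control library 1, 0.0648 without control library 3, and 0.0902, 0.0669 and 0.137 without LPL overexpression library 1, 3 or 4.

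Of 11 nuclear regulators 1 rose and 2 fell. Ppargc1a, the coactivator known for driving mitochondrial biogenesis, rose at a low level, from 0.166, 0.250 and 0.321 TPM to 1.21, 1.14, 1.32 and 1.11 TPM (log2 fold change 2.24 ± 0.21, SE). That is the largest log2 fold change in the 7 lists, from 40 counts over the 3 controls and 253 over the 4 LPL overexpression libraries. Yy1 had 82.5, 86.7 and 82.3 TPM in controls and 76.1, 73.0, 82.3 and 78.5 TPM with LPL overexpression (log2 fold change -0.14 ± 0.04, SE). Gabpa fell by 0.09 and missed the threshold with upper-quartile scaling (adjusted p = 0.0714), limma (0.102) and without control library 3 (0.0869) or LPL overexpression library 4 (0.0629). Nrf1, Esrra and Myc did not pass, with log2 fold changes of 0.03, 0.01 and 0.04.

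The 2 RNAs around which these proteins assemble were unequal in their change. mt-Rnr2, the RNA of the large subunit, had 385, 409 and 448 TPM in controls and 600, 603, 622 and 611 TPM with LPL overexpression, without overlap (log2 fold change 0.53 ± 0.04, SE; adjusted p = 5.66e-07, edgeR). mt-Rnr1, the RNA of the small subunit, had 447, 487 and 486 TPM and then 503, 505, 512 and 502 TPM, a log2 change of 0.07 ± 0.03 (SE; adjusted p = 0.0535, edgeR) that passed under 8 alternatives, among them upper-quartile scaling (0.00831) and the fits without control library 2 (0.0277), control library 3 (0.018) or LPL overexpression library 4 (0.0317). The log2 ratio of mt-Rnr2 to mt-Rnr1 counts was 0.51, 0.48 and 0.61 in controls and 0.98, 0.98, 1.01 and 1.01 with LPL overexpression. The groups differed by 0.46, and the exact two-sided permutation test over 35 splits gave p = 0.0286, the smallest it can give. This test was not planned, and the ratio is formed from the same counts of both RNAs, so it is no separate support. The labels do not say which ribosomal RNAs were removed in library preparation, so these levels are not amounts in the cell. Of the messenger RNAs that the ribosome translates, mt-Nd1 rose by 0.22 and mt-Nd2 by 0.14 on the log2 scale and mt-Co1 fell by 0.10, while mt-Nd4, mt-Nd5, mt-Nd6 and mt-Cytb did not pass. mt-Co2, mt-Co3, mt-Atp6, mt-Atp8, mt-Nd3 and mt-Nd4l were listed at 0 in all libraries. Beside mt-Co1 at 15888 ± 351 TPM in controls (SD, n = 3), these zeros are not read as absence of the RNAs. Their cause was not tested, and the comparison covers only part of the messenger RNAs.

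Beside 2 related families in the same fit, the shares and the median of the members lay between theirs. Of 76 nuclear-encoded subunits of the respiratory chain 29 rose (38.2%) and 2 fell (2.63%), and the median on the log2 scale was 0.05. Of 76 cytosolic ribosomal proteins 2 rose (2.63%) and 13 fell (17.1%), with a median of -0.01. The members of the mitochondrial ribosome had 22.1% and 6.49%, with a median of 0.03, beside 21.9% and 21.3% of all genes tested. The median standard error was 0.032 for the respiratory chain subunits, 0.025 for the cytosolic ribosomal proteins and 0.041 for the members. The shares that passed were thus read at unlike precision. No test of the differences between these families was made.

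**Figure D5:**
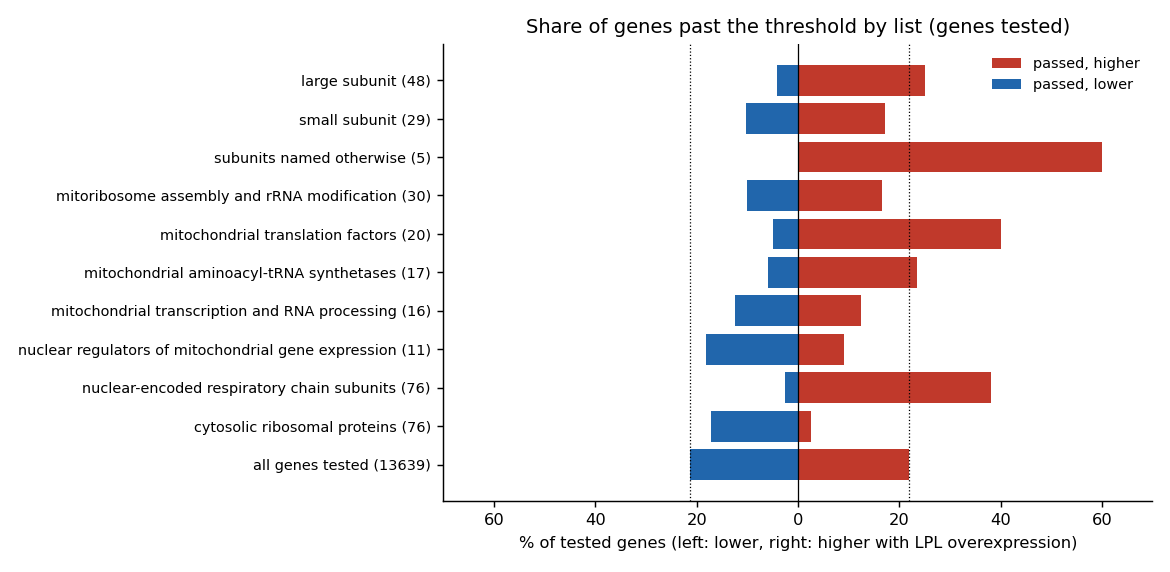
Percent of tested genes that passed as lower (left of 0) or higher (right of 0) with LPL overexpression, by list, with the number of genes tested in brackets. Dotted lines mark the shares over all 13639 genes tested, 21.9% higher and 21.3% lower. The large subunit is at 25.0% higher and 4.17% lower and the small subunit at 17.2% and 10.3%.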

How the data were processed

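RNA-seq of 7 libraries was used, grouped by sample title. Reads were aligned to mm10 with STAR, per the submitters' processing notes (version and annotation release: not given in the sources used here). The deposited counts per gene are raw and unnormalized, with a column for each read orientation per the file headers. The reverse orientation, 97.0% to 97.1% of oriented reads, was used. The authors' TPM values, from the column that sums to 1000000, served as levels. Coordinates are those of the deposited tables, and overlaps came from GENCODE vM21 of the same build.

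Counts were tested with edgeR 4.0.16 (TMM, filterByExpr, robust quasi-likelihood fit, R 4.3.3) over all genes, with Benjamini-Hochberg adjustment. The standard errors (SE) were derived, as the size of the log2 fold change divided by the square root of the test's F statistic. Tested on simulated data, in which far fewer genes were changed than passed here, the fit made more false calls than the nominal rate. Alternatives were DESeq2 1.42.0, upper-quartile factors, no filter beyond 1 count, replicate number as a block, both orientations, limma 3.58.1 on log2(TPM + 0.5) and log2(TPM + 1), and leaving out each library. Members and lists were chosen with earlier results of these data known. Named were, per subunit, up to 8 rises and 8 falls, the 4 highest and 4 lowest levels, Mrpl12, the Mrps18 genes, Mrps30 and Mrps36, and from each other list the 2 lowest adjusted p in each direction, of which 1 gene is not reported here. The remaining rises of the large subunit (Mrpl34, Mrpl43, Mrpl17 and Mrpl13) are named in addition. The gene pairs and Mrps33 were chosen after their values were seen. The planned ranking of genes by correlation with the family was left out, because the libraries form separate groups of 3 and 4.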

Additional observations from a re-analysis of the deposited data

Results flagged for a closer look

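Of 79 values in the LPL overexpression group checked for a library far from the others (the level of each member and Lpl; chance flags about 1 in 20), 1 stood apart. Mrps36 had 6.42 TPM in LPL overexpression library 2, while the other 3 libraries of the group had 4.89 to 5.09 TPM, a gap of 0.869 of the range. The counts were 73 in that library and 48 to 52 in the other 3. Mrps36 did not pass the test, and without that library its log2 fold change was -0.04.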

How the results depend on the processing

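Of 22 calls among the members, 13 held under all 14 alternatives, 4 were lost under 1 and 5 under 6 to 11, and none of the 22 changed direction. The number of genes that passed over the whole table was 4850 (DESeq2) to 5939 (upper-quartile scaling), and the share of calls that were higher was 50.8% in the fit reported, 59.2% with upper-quartile scaling and 61.3% with limma on log2(TPM + 0.5). The median over all genes moved by at most 0.03. The large subunit median of 0.02 was 0.0473 with upper-quartile scaling, 0.0455 with the replicate block, and 0.0512 and 0.0506 with limma on log2(TPM + 0.5) and log2(TPM + 1). The small subunit median of 0.06 was 0.0801 with upper-quartile scaling. Small subunit rises numbered 9 with upper-quartile scaling and limma at both pseudocounts, and falls 1 with these and DESeq2. Falls in the 7 other lists numbered 6 under the same settings instead of 10. Members with every LPL overexpression library below every control numbered 6 in TMM-scaled CPM and 3 in TPM. Leaving out each library gave 8 to 11 rises and 2 to 4 falls in the large subunit (median 0.0178 to 0.0512), and 4 to 7 rises and 2 to 3 falls in the small subunit (median 0.0259 to 0.0616). Over all alternatives the large subunit rises numbered 8 to 17, beside 12 in the fit reported. Mrps30 changed sign with limma (0.000902 and 0.000893) and without control library 3 (range over libraries left out -0.0739 to 0.00734), and Mrps36 without LPL overexpression library 2 (range -0.0425 to 0.115). The cause of these shifts was not tested. With the replicate number as a block, 5793 genes passed and 19 of the 22 members kept their call. Same-numbered libraries did not deviate together (r = -0.019, -0.039 and 0.019), and of the 3 controls only control 3 correlated best with its own number. The alternatives for the other lists and for the ribosomal RNA ratio, which stayed between 0.43 and 0.50, were chosen after seeing the data. Depth limits Mrps36 (48 to 73 counts a library) and Mrpl53, whose change could not be read.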
